A study of Mus musculus with 16 samples.

Results

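The genes described here build the pigment melanin and the melanosome, the organelle that holds it. They are 9 members chosen by name: Tyr, Tyrp1, Dct, Pmel, Mlana, Oca2, Slc45a2, Slc24a5 and Gpr143. Each was matched by Ensembl identifier to 1 row of a table of 51912 genes, and 9 of 9 passed the filter of a mean of at least 1 CPM (the count scaled to the size of its library), as did 15380 genes in all. The tissue was the retinal pigment epithelium (RPE), a sheet of pigmented cells between the photoreceptors and the choroid, and its RNA was sequenced in a study of the succinate receptor SUCNR1 and oxidative stress. The mice were male, of the pigmented C57BL/6 strain and 40 weeks old, and were wild type or SUCNR1 knockout (KO). How the knockout allele was made is not given in the sources used here. Within each genotype, mice were untreated or exposed to hydroquinone. Dose, route and duration are not given in the sources used here. The 4 groups hold 4 libraries each, 1 library per eye. By the titles, untreated wild type came from 2 mice, wild type with hydroquinone from 4, untreated KO from 3 and KO with hydroquinone from 4, although the protocol gives 4 animals in every group. RPE clumps were lifted with forceps from the choroid, the vascular layer beneath, after the retina had been peeled away.

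Melanin synthesis starts when tyrosinase oxidises tyrosine, and further enzymes turn the product into brown or black polymer. This happens inside melanosomes, on amyloid fibrils, at a pH set by transporters in the organelle's membrane. RPE cells make melanin mostly during development and keep their melanosomes for life, where the pigment absorbs stray light. Melanocytes of the choroid, which arise from the neural crest, use the same enzymes and structural proteins. Rpe65, the isomerase of the visual cycle, belongs to the RPE and not to melanocytes, and it was therefore set beside the pigment genes.

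MITF, the transcription factor that drives pigment genes in both cell types, binds a motif called the M-box, whose core was searched as TCATGTG. The OTX core, searched as TAATCC, is bound by OTX2, a factor of the RPE. CACGTG, a palindrome that other proteins of the MITF type also bind, was searched too. Each was searched on both strands in the 300 bases from 250 before to 50 after the RefSeq start site (GRCm38.p6). None of these motifs contains another. Windows were available for Tyr, Tyrp1, Dct, Oca2, Slc24a5 and Rpe65. The M-box core was found in 4 of these 5 pigment gene windows and not in that of Oca2 or Rpe65. Over all 32851 windows, 3.77% held the M-box core, 7.06% the OTX core and 7.15% CACGTG. The 250 bases before the start are printed for 3 pigment genes that hold the core and for Rpe65, 5′ to 3′ on the gene's strand, because the levels of these genes are compared throughout. Capitals mark TCATGTG or TAATCC, or their reverse complements CACATGA and GGATTA. The sequences lie at chr7:87493513-87493762 (minus strand) for Tyr, chr14:118052247-118052496 (minus strand) for Dct, chr2:125067877-125068126 (plus strand) for Slc24a5 and chr3:159598931-159599180 (plus strand) for Rpe65.
Tyr: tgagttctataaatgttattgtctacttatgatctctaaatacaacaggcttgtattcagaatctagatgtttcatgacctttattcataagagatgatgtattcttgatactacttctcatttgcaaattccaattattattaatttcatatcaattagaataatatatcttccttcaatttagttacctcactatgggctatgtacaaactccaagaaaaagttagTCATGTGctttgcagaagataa
Dct: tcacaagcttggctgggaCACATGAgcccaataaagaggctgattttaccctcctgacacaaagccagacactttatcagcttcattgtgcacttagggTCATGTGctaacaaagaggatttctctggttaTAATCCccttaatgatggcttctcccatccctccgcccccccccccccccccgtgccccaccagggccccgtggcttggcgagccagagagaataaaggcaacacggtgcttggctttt
Slc24a5: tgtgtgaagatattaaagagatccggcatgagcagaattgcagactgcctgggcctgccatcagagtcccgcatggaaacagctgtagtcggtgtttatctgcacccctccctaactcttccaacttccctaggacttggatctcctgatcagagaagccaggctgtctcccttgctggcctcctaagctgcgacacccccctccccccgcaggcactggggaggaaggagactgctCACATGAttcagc
Rpe65: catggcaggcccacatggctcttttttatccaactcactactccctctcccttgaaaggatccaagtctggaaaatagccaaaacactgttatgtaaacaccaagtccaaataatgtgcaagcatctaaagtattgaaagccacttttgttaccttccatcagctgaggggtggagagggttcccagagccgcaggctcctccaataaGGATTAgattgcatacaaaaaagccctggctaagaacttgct
The first base of the M-box core lay 22 bases before the start of Tyr, and 13 bases before that of Slc24a5, there on the opposite strand. Dct held it at both 232 (opposite strand) and 151 bases before the start, with an OTX core at 119. In Tyrp1 it lay 47 bases before the start, with an OTX core on the opposite strand just after the start. CACGTG was in 0 of the 6 windows. Rpe65 held an OTX core on the opposite strand, 42 bases before the start. A match is a run of letters, and binding was not measured here.

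Total counts were between 21113549 and 35332444 per library. Sucnr1 gave 29 counts over the 8 wild-type libraries, 10 and 17 of them in the eyes of 1 untreated mouse. The other wild-type libraries held 0 or 1. The 8 KO libraries gave 4 counts, 3 of them in untreated KO replicate 3. Counts this low do not check any KO label, and few of the wild-type ones. RPE markers were abundant in every library, with a sum over 8 genes of 19310 to 30010 CPM, led by Ttr, although Best1 averaged 2.08 CPM. Other cells were present as well. The 11 rod photoreceptor markers summed to 252 to 23190 CPM, and 2 libraries stood apart, untreated KO replicate 4 at 23190 and hydroquinone KO replicate 1 at 21190, against at most 9653 in the other 14. Corneal epithelium markers summed to 1980 to 24070 CPM and oligodendrocyte markers to 118 to 9698 CPM. The 2 rod-rich libraries are left out beside the results they touch.

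The 6 melanocyte markers summed to 256 to 536 CPM, and none was at 0 in any library. Most of this sum came from Ednrb, at a median of 137 CPM, and Sox10 at 88.8 CPM, genes that are also known from glia and other cells. Mc1r, the melanocortin receptor of melanocytes, had a median of 2.51 CPM and Pax3, a regulator of melanocyte precursors, 4.72 CPM. Erbb3 had a median of 52.1 CPM and Kit 45.6 CPM. Per kilobase of exon, Ednrb averaged 35.35 CPM, Sox10 29.3, Erbb3 10.35, Kit 5.69, Pax3 0.745 and Mc1r 0.678. The pigment genes averaged from 19.2 CPM per kilobase (Gpr143) to 610 (Dct), so the 2 ranges overlap. The 4 groups overlapped in the melanocyte sum, with 333 to 448 CPM in untreated wild type, 284 to 389 in wild type with hydroquinone, 256 to 536 in untreated KO and 288 to 396 in KO with hydroquinone. In tissue RNA, fewer cells of a type and less RNA per cell cannot be told apart.

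Pigment genes were expressed in all 16 libraries, with Dct, Tyrp1, Pmel and Mlana above the 3 transport proteins, Tyr and the receptor. The highest level per kilobase of annotated exon was that of Dct, dopachrome tautomerase, which acts after tyrosinase, at 610 ± 159 CPM per kilobase (SD, n = 16 libraries). Tyrp1, the related enzyme that stabilises tyrosinase, followed at 407 ± 102 and Pmel, the protein of the melanosome fibrils, at 337 ± 90.4. Mlana, a small membrane protein needed for the maturation of Pmel, reached 243 ± 60.5. Slc24a5, a calcium exchanger, reached 102 ± 22.4, and Tyr, tyrosinase itself, only 52.9 ± 15.0. Oca2, an anion transport protein that raises melanosome pH, stood at 39.8 ± 7.88, Slc45a2, a transporter that also acts on melanosome pH, at 23.1 ± 5.91 and Gpr143, a receptor on melanosomes that limits their size, at 19.2 ± 3.76. Rpe65 was above all 9, at 1638 ± 345 CPM per kilobase. The order was the same in 16 of 16 libraries for 6 of the 8 neighbouring pairs. It held in 14 libraries for Tyrp1 over Pmel and in 11 for Slc45a2 over Gpr143. That last pair changed places, at 23.1 and 24.2, when the length of the principal transcript was used, and the level of Dct became 1632 ± 426. The lengths are those of an annotation, and which transcripts the RPE uses was not measured.

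**Figure D1:**
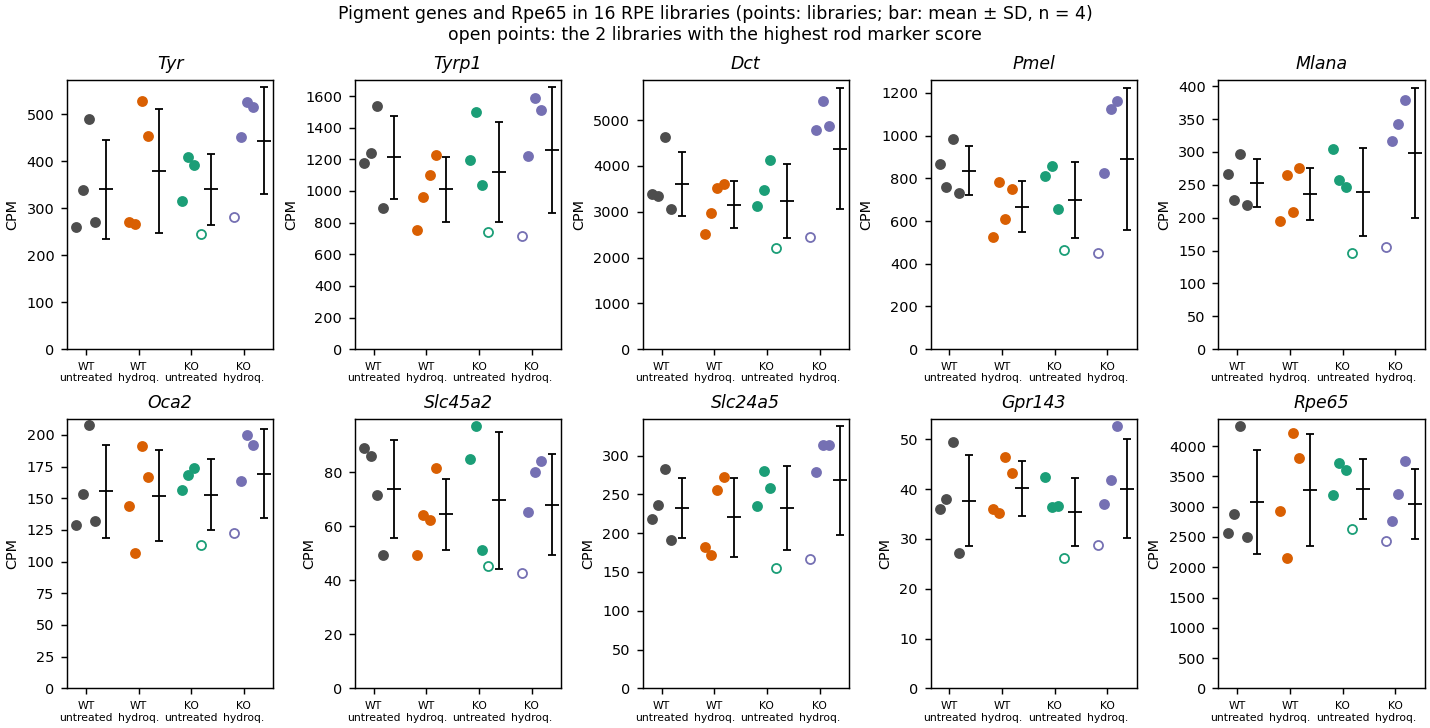
CPM of the 9 pigment genes and Rpe65 in each library (y axis, linear, from 0) by group (x axis, 4 libraries each), with the group mean ± SD as a bar and open points for the 2 rod-rich libraries. In the KO groups the open points are the lowest of their group for 9 of 9 pigment genes, and every pair of groups overlaps.

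Levels of a single member spanned 1.94-fold (Oca2, from 107 to 207 CPM) to 2.60-fold (Mlana, from 146 to 379 CPM) over the 16 libraries. The extremes gathered in few libraries. Untreated KO replicate 4 was among the 2 lowest libraries for 9 of 9 members, and hydroquinone KO replicate 1 for 6 of 9, the same libraries that were rich in rod markers. Hydroquinone KO replicate 4 was the highest for 4 members and replicate 3 for 2. Eyes of 1 mouse could differ more than the median pair of different mice within a group. In the mouse behind untreated wild-type replicates 3 and 4, the right eye was higher for 9 of 9 members, by 0.43 to 0.86 on the log2 scale. Rod markers summed to 1037 CPM in its right eye and 7671 in its left. The median absolute log2 difference over the members was 0.12, 0.30 and 0.60 for the 3 mice with both eyes. It was 0.069 to 0.96 for the 21 pairs of different mice within a group, with a median of 0.36. In each mouse with both eyes, 1 library had a letter in its identifier and the other had none. A difference between its eyes therefore cannot be told apart from one between these identifier forms.

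Hydroquinone against untreated was the first comparison of the design, and no pigment gene passed its test. By edgeR's quasi-likelihood test with Benjamini-Hochberg adjustment over all genes, 0 of 9 members passed an adjusted p of 0.05 in wild type, where 0.0065% of all genes did, and 0 of 9 in KO, where 0.0455% did. Averaged over genotype it was 0 of 9 against 0.0845% of all genes. No member had an unadjusted p under 0.05 in these contrasts, where 658, 456 and 879 of the 15380 genes did. DESeq2, and limma voom with the mouse as a block, also called 0 of 9 members. In wild type, 7 of 9 members were lower with hydroquinone and the median log2 fold change was -0.10. In KO, 8 of 9 were higher, with a median of 0.21. Over all genes 49.96% and 49.6% were higher, with medians of -0.00020 and -0.0014. The groups of both contrasts overlapped for 9 of 9 members, while 2.91% of all genes did not overlap in wild type and 1.91% in KO.

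Among the enzymes, Tyr (ENSMUSG00000004651, chr7:87424771-87493512, minus strand, GRCm38) was at 261, 339, 490 and 271 CPM in untreated wild type and at 272, 267, 529 and 454 with hydroquinone. Both groups held low libraries of about the same level and at least 1 high one. In untreated KO it was at 315, 408, 393 and 245 CPM and with hydroquinone at 280, 451, 526 and 516. In KO, 3 of 4 exposed libraries lay above all 4 untreated ones and the rod-rich replicate 1 lay among them. Averaged over genotype, Tyr was higher by 0.27 on the log2 scale (SE 0.20, 95% interval -0.15 to 0.69), with an adjusted p of 0.91 in edgeR. Dct (ENSMUSG00000022129, chr14:118012790-118052244, minus strand) was at 3118, 3479, 4136 and 2200 CPM in untreated KO and at 2438, 4774, 5422 and 4882 with hydroquinone, which is a change of 0.44 on the log2 scale (SE 0.25, interval -0.09 to 0.96, and 0.9999 as the adjusted p in edgeR). In wild type it was at 3387, 3349, 4636 and 3066 CPM untreated and at 2516, 2972, 3515 and 3610 with hydroquinone, a change of -0.20 (interval -0.72 to 0.33). Tyrp1 (ENSMUSG00000005994, chr4:80834123-80851719, plus strand) differed by -0.26 in wild type and 0.17 in KO. The 3 enzymes thus had wide intervals that include 0 in either genotype.

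Of the fibril proteins, Pmel (ENSMUSG00000025359, chr10:128704195-128720238, plus strand) was at 867, 760, 983 and 731 CPM in untreated wild type and at 526, 781, 611 and 751 with hydroquinone, a log2 change of -0.32 (interval -0.88 to 0.23). In KO it was at 812, 859, 658 and 466 CPM untreated and at 449, 827, 1127 and 1163 with hydroquinone, a change of 0.35 (interval -0.21 to 0.91). The exposed KO group held both the lowest and the highest Pmel level of all 16 libraries. The ends of Pmel overlap Dgka and Cdk2, at 56.5 and 44.8 CPM, so a few of its reads could be theirs or the reverse. Mlana (ENSMUSG00000024806, chr19:29697824-29708634, plus strand) differed by -0.10 in wild type and 0.32 in KO. Slc24a5 (ENSMUSG00000035183, chr2:125068124-125088677, plus strand), which overlaps Myef2, differed by -0.08 and 0.21. Oca2 (ENSMUSG00000030450, chr7:56239760-56536518, plus strand) differed by -0.03 and 0.15, Slc45a2 (ENSMUSG00000022243, chr15:11000721-11029233, plus strand) by -0.20 and -0.03 and Gpr143 (ENSMUSG00000025333, chrX:152781921-152808646, plus strand) by 0.09 and 0.18. Rpe65 differed by 0.09 in wild type and -0.11 in KO.

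**Figure D2:**
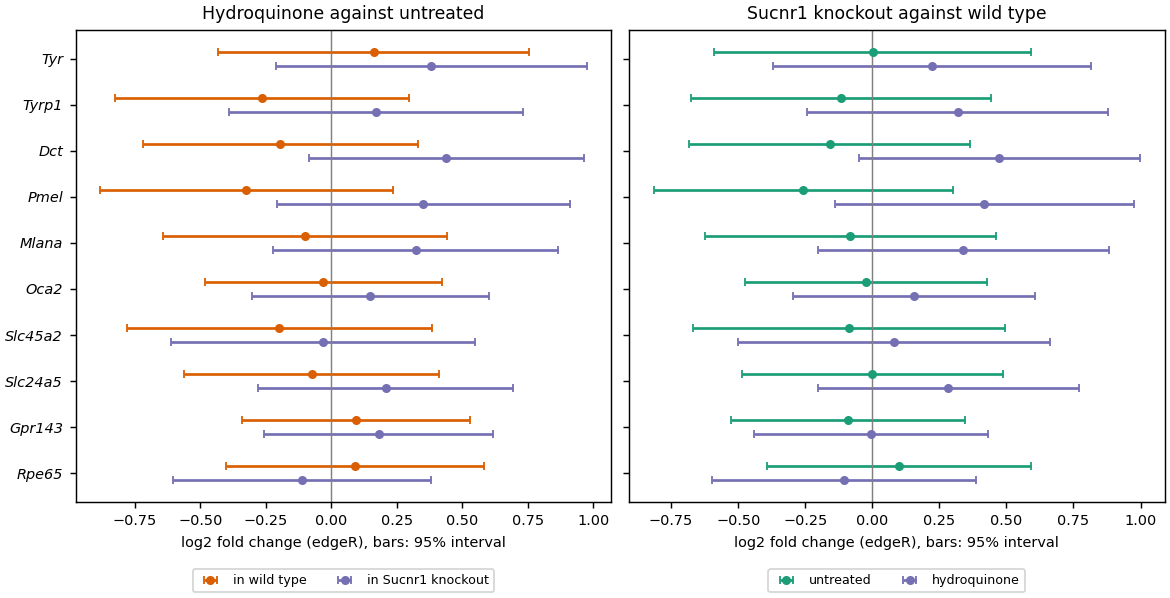
Log2 fold change of each pigment gene and Rpe65 (x axis, edgeR, bars are 95% intervals) for hydroquinone in each genotype (left) and for KO against wild type in each treatment (right). All intervals include 0, and the largest point estimate is 0.47 for Dct in KO against wild type under hydroquinone.

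Loss of Sucnr1 was compared next, in each treatment. By edgeR, 0 of 9 members passed in untreated mice, under hydroquinone, or averaged over treatment, and 0% of all genes passed in any of these. At an unadjusted p under 0.05 there were 203, 643 and 456 genes, and 0 members. DESeq2 and limma voom also called 0 members. In untreated mice 7 of 9 members were lower in KO, with a median log2 fold change of -0.09. Under hydroquinone 8 of 9 were higher, with a median of 0.28, against 53.15% of all genes and a median of 0.01. Dct was the furthest from 0, at 4379 ± 1325 CPM in exposed KO and 3153 ± 509 in exposed wild type (SD, n = 4), which is a difference of 0.47 on the log2 scale (SE 0.25, interval -0.05 to 1.00, and 0.9999 as the adjusted p in edgeR). In exposed KO, 3 libraries, at 4774, 4882 and 5422 CPM, lay above all 4 exposed wild-type libraries and 1, at 2438, lay below them. Gpr143 differed least, at 40.1 ± 9.98 against 40.2 ± 5.53 CPM.

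The interaction, which asks whether hydroquinone acted differently in the genotypes, was positive for 9 of 9 members, with a median of 0.28 against 0.000071 over all genes. Again 0 of 9 members passed in edgeR, as did 0% of all genes, and none had an unadjusted p under 0.05, where 296 genes did. Pmel had the largest value at 0.68 (SE 0.37, interval -0.11 to 1.47) and Dct followed at 0.63 (SE 0.35, interval -0.11 to 1.37). Their edgeR adjusted p was 1.0. Without the rod-rich libraries the median was 0.29, again with 9 of 9 positive, and Pmel (0.73, SE 0.26, unadjusted p = 0.015) and Dct (0.68, SE 0.26, unadjusted p = 0.021) had an edgeR adjusted p of 1.0. A difference in response between the genotypes was not detectable at this depth of replication for any member, and these intervals leave room for a change of more than 2-fold. With only untreated KO replicate 4 left out, 7 of 9 members were positive in the interaction, with a median of 0.12. With only hydroquinone KO replicate 1 left out, 9 of 9 were positive, with a median of 0.45. Since the members varied together, 9 equal signs are not 9 separate observations.

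The 2 rod-rich libraries moved these values. The median log2 fold change for hydroquinone in KO was 0.21 with all libraries, 0.38 without hydroquinone KO replicate 1 and 0.05 without untreated KO replicate 4. Without both it was 0.22, with 8 of 9 members higher and the smallest edgeR adjusted p at 0.81. For KO against wild type under hydroquinone the median was 0.45 without both, with 9 of 9 members higher, an unadjusted p down to 0.0027 and a smallest adjusted p of 0.40. In untreated mice, 7 of 9 members were then higher in KO where 7 of 9 had been lower. With the rod marker score, the mean log2(CPM + 1) of the 11 markers, as a covariate, the median for hydroquinone in KO was 0.05. The corresponding median for KO against wild type under hydroquinone was 0.02, and averaged over treatment 0 of 9 members were higher in KO, with a median of -0.12. For the interaction the median with this covariate was 0.18, with 9 of 9 positive. Corneal markers summed to 2358 to 24070 CPM in exposed wild type and 1980 to 7499 in exposed KO, ranges that overlap. By edgeR 0 of the 4 corneal markers passed between these groups, with a median log2 fold change of -1.24 for KO against wild type. With the corneal score as covariate the median was 0.11 for hydroquinone in KO, 0.12 for KO against wild type under hydroquinone (5 of 9 members higher) and 0.12 for the interaction (6 of 9 positive). No setting brought a member past the threshold.

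The ratio to Rpe65 sets melanosome transcripts against an RPE transcript of the same library. The log2 ratio of member to Rpe65, with the eyes of a mouse averaged, was compared by an exact 2-sided permutation test over 13 mice with labels permuted within the other factor. For hydroquinone averaged over genotype (smallest possible p 0.0019) and for KO averaged over treatment (smallest possible p 0.0014), 0 of 9 members differed, and 18 of 18 adjusted p-values were 0.99. The ratio of Tyr was higher with hydroquinone by 0.28 on the log2 scale, at an unadjusted exact permutation p of 0.055. In untreated KO, Tyr stood at 9.87%, 11.0%, 10.9% and 9.31% of the Rpe65 CPM, and in exposed KO at 11.5%, 16.3%, 16.4% and 13.7%. These groups did not overlap, which leaving out the rod-rich replicates 4 (untreated) and 1 (exposed) could not change. The untreated KO values came from 3 mice. In wild type the values were 10.2%, 11.8%, 11.3% and 10.8% untreated and 9.28%, 12.4%, 12.5% and 12.0% exposed, which overlap. Oca2 likewise did not overlap in KO, at 4.28% to 4.90% of Rpe65 untreated and 5.03% to 6.23% exposed. These were 2 of 9 members, in a contrast where 2.96% of all genes had ratios to Rpe65 that did not overlap. Under hydroquinone, the ratio of Oca2 also did not overlap between KO and wild type, 1 of 9 members against 1.65% of all genes. With libraries scaled to Rpe65 in edgeR, which moved the median of all genes in KO by 0.12, the smallest p of a member for hydroquinone in KO was 0.0051 and the smallest adjusted p 1.0.

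Dividing by Rpe65 removed much of the spread of some members and little of others. Over the 13 mice, the SD of log2 CPM was 0.41 for Tyr and became 0.26 for its ratio to Rpe65. For Oca2 it went from 0.29 to 0.15, for Slc24a5 from 0.35 to 0.24 and for Gpr143 from 0.26 to 0.21. It hardly changed for Pmel, at 0.43 and 0.42, for Mlana, at 0.41 and 0.40, for Slc45a2, at 0.37 and 0.34, or for Dct, at 0.39 and 0.36. Tyrp1 lay between, at 0.39 and 0.32. The SD of Rpe65 itself was 0.29.

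The correlation over the 13 mice restates these SDs and is no separate evidence. Pearson's r with Rpe65 was 0.86 for Oca2 (Spearman's rho 0.84, permutation p = 0.00016, adjusted p = 0.0029 over 18 relations). It was 0.77 for Tyr (rho 0.79, permutation p = 0.0024, adjusted p = 0.021). Slc24a5 had r = 0.73 (rho 0.70) and Gpr143 r = 0.72 (rho 0.79), both at a permutation p near 0.0051, with an adjusted p of 0.023. These 4 of 9 members passed by r and by rho. Over all genes, 6.50% had an r with Rpe65 at least as high as that of Gpr143, and the median was -0.08. Tyrp1 (r = 0.58), Slc45a2 (0.49), Dct (0.47), Mlana (0.36) and Pmel (0.36) did not pass, and whether any of these r differs from those of the 4 was not tested. Without the 2 mice farthest from the median Rpe65 level, r was 0.73 for Oca2, 0.71 for Tyr, 0.58 for Slc24a5 and 0.74 for Gpr143. Within the 9 libraries whose identifier has no letter, each from another mouse, these r were 0.95, 0.81, 0.76 and 0.81, and within the 7 with a letter 0.78, 0.85, 0.81 and 0.86, where 1 and 0 members passed. Without both rod-rich libraries 1 member passed. Of single libraries left out, hydroquinone KO replicate 1 lowered the count from 4 to 2 and replicate 4 of that group to 1.

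The melanocyte score, the mean log2(CPM + 1) of its 6 markers, went with 1 of 9 members. This was Slc45a2, at r = 0.67 (rho 0.65, permutation p = 0.012, adjusted p = 0.044, and 0.069 by rho). Without the 2 mice farthest from the median score its r was 0.41 (permutation p = 0.21). The relation did not pass in 8 of the 16 settings that left out 1 library. These were untreated wild-type replicates 1 and 3 and hydroquinone wild-type replicate 4. In KO they were untreated replicates 2 and 4 and hydroquinone replicates 1, 2 and 4. Within the 2 identifier forms r was 0.70 and 0.81. Tyr and Oca2 had r of 0.01 and 0.05 with this score, and Mlana, Pmel and Tyrp1 0.46, 0.49 and 0.44. Rpe65 had 0.03. The list cannot tell melanocytes from glia for the genes that both express. The share of all genes that vary with the melanocyte score was not computed, so 1 of 9 has no background beside it.

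**Figure D3:**
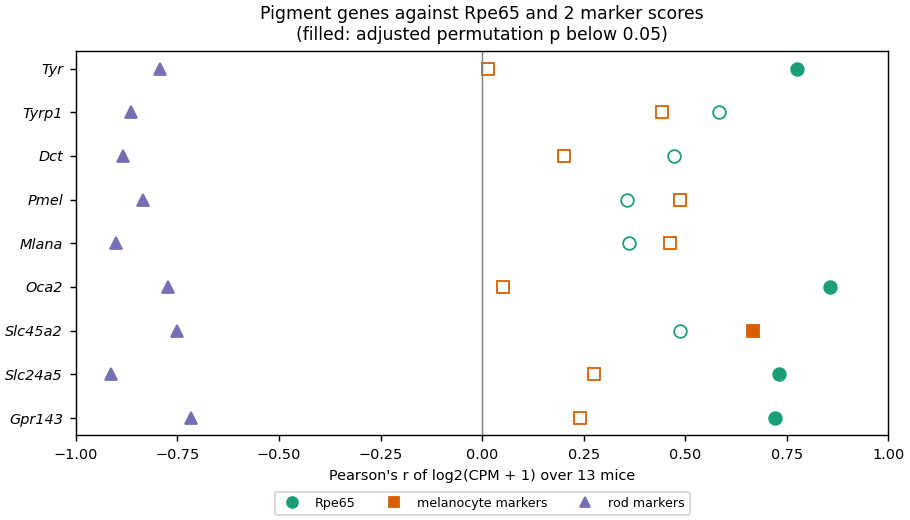
Pearson's r over 13 mice (x axis) between the log2(CPM + 1) of each pigment gene (rows) and Rpe65 (circles), the melanocyte marker score (squares) or the rod marker score (triangles), filled where the adjusted permutation p is below 0.05. All 9 triangles lie between -0.91 and -0.72, and the circles of Oca2, Tyr, Slc24a5 and Gpr143 lie above 0.7.

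The rod marker score, compared after the values had been seen, ran opposite to the pigment genes. All 9 members were lower in mice with a higher score, with r from -0.91 for Slc24a5 to -0.72 for Gpr143, and 9 of 9 passed over a family of 63 relations with 7 marker lists (7 by rho). Slc24a5 had rho -0.95, a permutation p of 1e-05, the smallest that 100000 permutations give, and an adjusted p of 0.00063. Mlana had r = -0.90 (rho -0.86, permutation p = 5e-05, adjusted p = 0.0011). Over all genes 3.57% had an r as low as that of Gpr143, and the median was 0.01. Without the 2 mice farthest from the median score, r was -0.88 to -0.64. Without the 2 rod-rich mice it was -0.84 to -0.40, and 4 of 9 members passed. Untreated KO replicate 4 or hydroquinone KO replicate 3 left out alone gave 5 of 9. Within the libraries without a letter r was -0.84 to -0.38 and within those with a letter -0.94 to -0.69, and 0 members passed in either. The corneal, oligodendrocyte, Schwann cell, fibroblast and macrophage scores gave 0 of 9 members past the threshold, and the endothelial score 1, Tyr. For these scores the share of all genes was not computed.

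Rpe65 had r = -0.53 with the rod score (permutation p = 0.063). Set against it, the ratio of a member to Rpe65 had r with the rod score of -0.69 for Slc24a5 (rho -0.68, permutation p = 0.0089) and -0.65 for Tyr (rho -0.54, permutation p = 0.015), each at an adjusted p of 0.069 over 9 relations, down to -0.16 for Gpr143. By this test 0 of 9 members passed, so variation with the rod score beyond Rpe65 was not detected. That does not show that it is absent. In log2(CPM + 1), Mlana was at 7.29 and 7.20 in the 2 rod-rich mice and at 7.61 to 8.57 in the other 11. Slc24a5 was at 7.39 and 7.29 in the former and at 7.43 to 8.30 in the latter. The part of rod or other retinal RNA in these levels was not tested.

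**Figure D4:**
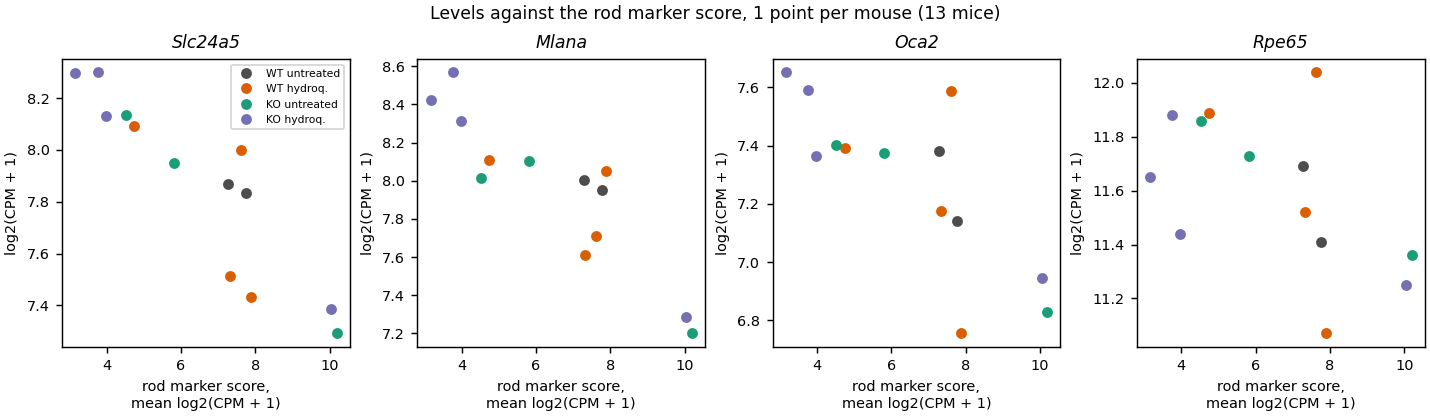
Log2(CPM + 1) of Slc24a5, Mlana, Oca2 and Rpe65 (y axes) against the rod marker score (x axis), 1 point per mouse and 1 colour per group. Slc24a5 and Mlana are lowest in the 2 mice with scores of 10.0 and 10.2, both KO, while Rpe65 is lowest in an exposed wild-type mouse.

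Members varied together from mouse to mouse. The 36 pairs had r from 0.57 to 0.95 over 13 mice, with a median of 0.81, and 36 passed at an adjusted permutation p of at most 0.044 (31 by rho). Without the 2 farthest mice r was 0.36 to 0.95, and without the 2 rod-rich mice 0.27 to 0.91 with a median of 0.67. Within the identifier forms it was 0.20 to 0.93 and 0.63 to 0.99. Pairs of other genes were not computed, so the 36 pairs have no background beside them. Slc24a5 was the most typical, with r = 0.97 to the mean of the 9, and Slc45a2 the least, with 0.84. Those r include the member itself in the mean. Of genes outside the list, Fkbp9, an endoplasmic reticulum peptidyl-prolyl isomerase, was closest to that mean at r = 0.96 (given as a description, 13 mice). Mlph, melanophilin, which links melanosomes to their motor, followed at 0.95, with Hs3st3a1, a heparan sulfate sulfotransferase, at 0.95 and Gpnmb, a melanosome and lysosome glycoprotein related to Pmel, at 0.95. Sec24d of the COPII coat had 0.94, Sumf1, which activates sulfatases, 0.93, Srpr, the receptor of the signal recognition particle, 0.92 and Lix1l 0.92. The median over 15380 genes was -0.05 and the upper 5% began at 0.72. Rpe65 had 0.63. Mitf had 0.81 and Otx2 0.51. Without the 2 rod-rich mice the 8 genes had r of 0.83 (Srpr) to 0.95 (Fkbp9 and Sec24d), Mitf 0.70, Otx2 0.60 and Rpe65 0.50, and the upper 5% began at 0.73.

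Other genes of the melanosome pathway formed a list of 47, of which 46 were tested and Bloc1s1 was too low. By edgeR 0 of 46 passed in each of the 7 contrasts, and the number with an unadjusted p under 0.05 was 1, 4 and 2 for hydroquinone in wild type, in KO and averaged. It was 0, 3 and 2 for KO against wild type untreated, exposed and averaged, and 0 for the interaction. Of all 15380 tested genes, 658, 456 and 879 had such a p for hydroquinone in the same order. For KO there were 203, 643 and 456, and for the interaction 296. DESeq2 also called 0 of the 46. The median log2 fold change of the list was 0.05, 0.06 and 0.07 for hydroquinone and -0.0021, 0.06 and 0.03 for KO. Likeness to the member mean varied widely within each role and is given as a description, with no test between roles. Of the 4 fibril and membrane proteins, Gpnmb, Cd63 and Bace2 had r of 0.95, 0.89 and 0.85 and Rtn4 -0.37. Rab proteins and motors had a median r of 0.70 (-0.65 for Mreg to 0.95 for Mlph) and membrane transporters 0.61 (-0.15 to 0.76). Transcription factors had a median of 0.55 (-0.26 to 0.81), sorting complexes 0.32 (-0.44 to 0.53) and signals 0.17 (-0.54 to 0.68).

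None of the genes with the smallest p passed. Among them, Rab32, a small GTPase that delivers enzymes to melanosomes, was at 10.6 ± 2.13 CPM in untreated KO and 15.1 ± 3.02 in exposed KO. These were 0.52 apart on the log2 scale (SE 0.19, with 0.9999 as the adjusted p in edgeR). In wild type Rab32 was at 13.1 ± 1.89 CPM untreated and 14.9 ± 2.62 exposed. It differed by 0.35 (SE 0.13) for hydroquinone averaged over genotype and by -0.32 (SE 0.19) for KO in untreated mice. Mfsd12, a cysteine importer of melanosomes, was at 51.0 ± 1.27 and 64.8 ± 12.2 CPM in untreated and exposed KO (0.34, SE 0.13). Ednrb, the endothelin receptor that also stands among the melanocyte markers, was lower with hydroquinone averaged over genotype, by -0.50 (SE 0.20; edgeR adjusted p = 0.86). Kit, the stem cell factor receptor, was at 44.5 ± 7.57 CPM in untreated and 67.3 ± 25.6 in exposed wild type (0.60, SE 0.24). Slc7a11, the cystine transporter, was at 61.1 ± 15.3 CPM in exposed KO and 35.2 ± 11.2 in exposed wild type (0.80, SE 0.25, unadjusted p = 0.0068; edgeR adjusted p = 0.9999). Slc7a11 is also a known gene of the oxidative stress response. Mreg, a melanosome transport protein, was at 36.4 ± 13.3 and 67.6 ± 34.6 CPM in those groups, the opposite direction (-0.89, SE 0.34). Gpnmb was at 1781 ± 596 CPM in exposed KO and at 1137 to 1283 on average in the other groups, with an interaction of 0.63 (SE 0.37). Slc7a11 also had the smallest p of the list for KO averaged over treatment (0.49, SE 0.18), followed by Bloc1s2 of a sorting complex (-0.25, SE 0.12). Vps33a of the HOPS complex had the smallest p for KO in untreated mice (0.16, SE 0.09). Without the rod-rich libraries 0 of 46 passed in any contrast. Ednrb was then at -0.57 (SE 0.20) for hydroquinone averaged over genotype and Slc7a11 at 0.95 (SE 0.25) for KO under hydroquinone, with an edgeR adjusted p of 0.40 each.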

How the data were processed

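The deposited table holds counts, whole numbers for 51912 genes in 16 libraries, as the values show (100% whole), although its name announces FPKM. STAR, Cufflinks, DESeq2 and mm10 are named per the submitters' processing notes, with no versions or roles, and strand use and duplicate handling are not given in the sources used here. The members, gene lists and comparisons were chosen with earlier results of these data known. Symbols and coordinates (1-based) are from GENCODE vM21, GRCm38, and matched 51633 identifiers. Asip was not analysed here.

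Counts were tested with edgeR 4.0.16 (R 4.3.3), TMM scaling, quasi-likelihood F test, 4 group means in 1 model of 16 libraries, genes with a mean CPM of at least 1 (99.8% of counts), Benjamini-Hochberg adjustment and a threshold of 0.05, in 7 contrasts. Standard errors were derived from F. Eyes of 1 mouse entered as libraries there and were averaged in tests over 13 mice. The edgeR fit was tested on simulated counts with 200 genes changed, and the permutation tests on small made data with known answers. DESeq2 and voom were not tested in this way. Ratios used CPM + 0.5 and correlations log2(CPM + 1) with 100000 permutations (scipy 1.17.1). Alternatives were DESeq2 1.42.0, limma 3.58.1 voom with the mouse as a block, other scalings, filters, pseudocounts and covariates, and each library left out. No library was a copy of another of its group: the smallest chi-square per degree of freedom was 20.3. Replicate numbers name samples only. P-values of edgeR measure the spread between these libraries, where eyes of 1 mouse count as separate. Permutation p-values rest on rearranged labels or values over mice. Named pathway genes are those past the threshold or, with none, the 2 with the smallest p per contrast, and the 8 genes most like the member mean were named.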

Additional observations from a re-analysis of the deposited data

Results flagged for a closer look

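In a group of 4 libraries, a library was marked when its gap to the nearest other exceeded 0.829 of the group's range. Of 76 sets of 4 values, 3 were marked, and about 3.8 would be by chance. The log2(CPM + 1) of Dct in hydroquinone KO replicate 1 was 11.25, far below the other 3 libraries of its group at 12.22 to 12.4. That library also held 21190 CPM of rod markers. The log2 ratio of Tyr to Rpe65 in hydroquinone wild-type replicate 1 was -3.428, below the others at -3.062 to -2.994. The log2 ratio of Gpr143 to Rpe65 in untreated KO replicate 1 was -6.219, above the others at -6.655 to -6.603.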

How the results depend on the processing

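The count of 0 members past the threshold held in 7 of 7 contrasts under every alternative run, including each library left out, as did the count of 0 pathway genes. The replicates could not be paired across groups. No paired analysis was possible because replicate numbers follow accession order and every mouse belongs to 1 group. In voom with a random block for mice (consensus correlation 0.0067) no call of a member or pathway gene changed, while calls over all genes went from 7 to 3 for hydroquinone in KO, from 1 to 0 in wild type and from 13 to 11 averaged. That correlation rests on the 3 mice with both eyes, whose 2 libraries also differ in identifier form.

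Directions of small differences did change, and the cause was not tested. In what follows, values for hydroquinone are averaged over genotype and values for KO over treatment. Changes of sign in log2 fold changes for hydroquinone were as follows. With the rod score as covariate, Dct was -0.018, Pmel -0.15, Mlana -0.051, Oca2 -0.030 and Slc24a5 -0.067. In libraries without a letter, Tyr was -0.062, Dct -0.17, Pmel -0.49, Mlana -0.32, Oca2 -0.22, Slc24a5 -0.29 and Gpr143 -0.22. In libraries with a letter, Tyrp1 was 0.50 and Slc45a2 0.52. Pmel was -0.016 with voom and -0.039 scaled to summed RPE markers. For KO, with the rod score as covariate, Tyr was -0.041, Tyrp1 -0.13, Dct -0.015, Pmel -0.17, Mlana -0.12, Oca2 -0.054 and Slc24a5 -0.033. With the corneal score, Tyr was -0.0068 and Oca2 -0.030. Without a letter, Tyr was -0.0026, Dct -0.0074, Pmel -0.075, Oca2 -0.044 and Slc45a2 0.032. With a letter, Gpr143 was 0.036. Without both rod-rich libraries, Slc45a2 was 0.16 and Gpr143 0.079. Slc45a2 was 0.00024 with the form as covariate and 0.018 without a filter. Pmel was -0.019 scaled to Rpe65 and -0.0083 scaled to summed RPE markers.

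Ratios to Rpe65 changed sign for hydroquinone in Tyrp1 (0.18) and Slc45a2 (0.21) with a letter, and in Pmel (-0.22) and Mlana (-0.058) without. For KO they changed in Pmel (0.054 with a letter, 0.15 without the rod-rich libraries) and Slc45a2 (0.10 without a letter, 0.070 without the rod-rich libraries).

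Members correlated with Rpe65 numbered 4, and 1 without a letter, 0 with a letter and 1 without the rod-rich libraries. Those correlated with melanocyte markers numbered 1, and 0 in those 3 settings and with pseudocount 5. Those correlated with rod markers numbered 9, and 0, 0 and 4. These settings hold fewer mice. Correlations with melanocyte markers turned negative for Tyr (-0.39), Oca2 (-0.25) and Gpr143 (-0.14) without a letter, for Tyr with pseudocount 5 (-0.021) and median-of-ratios scaling (-0.00020), and, without the rod-rich libraries, for Tyr (-0.48), Dct (-0.33), Oca2 (-0.49), Slc24a5 (-0.21) and Gpr143 (-0.44).

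Leaving out 1 library at a time gave 1 to 4 members for Rpe65, 0 to 1 for melanocytes and 5 to 9 for rods. Fold changes for hydroquinone were -0.13 to 0.050 for Tyrp1, -0.071 to 0.12 for Pmel, -0.0095 to 0.14 for Oca2 and -0.017 to 0.15 for Slc24a5. For KO they were -0.0018 to 0.15 for Oca2, -0.11 to 0.081 for Slc45a2 and -0.13 to 0.032 for Gpr143. Ratios for hydroquinone were -0.13 to 0.034 for Tyrp1 and -0.13 to 0.11 for Pmel. For KO they were -0.017 to 0.14 for Tyrp1, -0.088 to 0.13 for Pmel, -0.071 to 0.15 for Mlana and -0.13 to 0.052 for Slc45a2. Correlations with melanocyte markers were -0.30 to 0.21 for Tyr, -0.099 to 0.31 for Dct, -0.27 to 0.25 for Oca2 and -0.13 to 0.46 for Gpr143.

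Each member had at least 625 counts in each library.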
